A study of Gallus gallus with 12 samples.

Results

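Tudor domain germ granule genes were followed across 4 chicken cell populations through TDRD5, TDRD6, TDRD7, TDRD9, RNF17 and STK31. These 6 genes were chosen by name, with earlier results of these data known. All probe sets that carry one of the symbols in the array's annotation were taken, which gave 9 of the 38535 probe sets on the array. TDRD9 had 2 probe sets, RNF17 had 3 and each other gene had 1. Expression was measured on 12 Affymetrix chicken genome arrays, 1 for each RNA sample from White Leghorn embryos, with 3 samples in each group.

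Primordial germ cells (PGC), from which eggs and sperm descend, were recovered by magnetic sorting from the gonads of embryos at 6.5 days, with 100 embryos of mixed sex and 270000 cells behind each sample. The sources used here do not name the antibody of the sort. Blastoderm samples are dissociated stage X embryos from freshly laid eggs, 5 embryos and 530000 cells each, and hold a mixture of cells. GSC are gonadal stromal cells obtained from the same kind of gonads by the same sorting method, again with 100 embryos for each sample and 9000000 cells. CEF are cultured fibroblasts, each sample holding 6000000 cells at passage 2 grown out of 5 embryos aged 6.5 days. The labels call the replicates independent samples.

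Tudor domains are small folds that bind methylated arginine, and many germ cell proteins carry several of them. Their best known ligands are the arginine-rich tails of PIWI proteins, which hold small RNAs (piRNAs) that silence transposons. In mouse, fly and zebrafish germ cells, Tudor proteins gather PIWI proteins, the DDX4 helicase and RNA into germ granules, membrane-free bodies beside the nucleus also called nuage or, in spermatids, the chromatoid body. Most of what is known of the 6 genes comes from the mouse testis, and the data here concern their transcripts in chicken embryos.

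Values are log2 signals as deposited, and background was set at 3.61, below which 99% of the signals of viral and reporter probe sets fell. The signal of one probe set cannot be set against that of another, so levels are compared between samples only. The marker genes fitted the labels in part. In PGC all 5 measured germ cell markers of the 8 listed (DDX4, DAZL, DND1, KIT and CXCR4) lay above background, while NANOG, PRDM14 and POU5F3 have no probe set with that symbol. All 5 were also above background in blastoderm, and 4 in GSC and 2 in CEF. CXCR4, a receptor that guides migrating cells, was lower in PGC than in blastoderm (log2 -3.14, adjusted p = 5.02e-05), whereas the other 4 were higher. Markers listed for other cells also lay above background in the PGC fraction, and which cells their transcripts came from was not tested. All 7 measured gonadal somatic markers, all 5 measured kidney epithelium markers, all 4 endothelial markers and all 3 measured erythroid markers lay above background in PGC, as did 5 of 6 fibroblast markers and 2 of 3 measured blastoderm markers (SOX3 and OTX2, with WNT8A below it). For these lists in the same order, 7, 5, 4, 3, 6 and 1 markers lay above background in GSC. The counts were 4, 3, 0, 3, 3 and 3 in blastoderm and 2, 1, 1, 2, 6 and 1 in CEF. The summed gonadal somatic level (log2 of the summed linear signal) was 10.94 to 12.37 in PGC, against 12.42 to 12.65 in GSC. AMH, at 10.77 to 12.17 in PGC and 12.08 to 12.40 in GSC, made up most of that sum. AMH and FOXL2 were not called between PGC and GSC. The other 5 of the 7 were called lower in PGC (13.5% of all genes were), and all 7 were without PGC replicate 3. The median log2 fold change of the 7 was -1.69. The summed kidney level was 9.44 to 10.45 in PGC, against 7.86 to 8.03 in GSC. Of the 5 kidney markers, CUBN, LRP2 and SLC3A1 were called higher in PGC than in GSC (16.8% of all genes were). UMOD was called lower (5.41 against 6.89), and PAX2 was not called (5.68 against 5.72). The erythroid genes HBAD and HBA1 stood at 12.54 and 12.39 in PGC, against 12.80 and 12.56 in GSC, and were not called between them. HEMGN, the other measured erythroid marker, was called lower in PGC (7.16) than in GSC (8.64) and blastoderm (8.54). The summed fibroblast level was 10.92 to 12.07 in PGC, against 13.83 to 14.06 in CEF. Of 3 measured leukocyte markers only CSF1R lay above background in PGC, and all 3 did in CEF (PTPRC 7.62, SPI1 5.19 and CSF1R 5.08). The summed blastoderm level was 9.94 to 10.49 in PGC, against 10.90 to 11.54 in blastoderm. SOX3 and OTX2 stood at 9.94 and 7.57 in PGC, against 4.90 and 2.86 in GSC, and WNT8A at 1.93 against 2.01. PGC replicate 3 stood nearest to GSC, with a correlation across probe sets with the GSC mean of 0.966, against 0.935 and 0.944 for PGC replicates 1 and 2. In that array the median gonadal somatic marker was at 6.95, against 5.42 and 5.47 in the other PGC arrays. Its part in the results was not tested, and values without it are given beside the lower bounds, the list counts and the calls that it changed. In bulk RNA, fewer cells of a type cannot be told apart from less RNA per cell.

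All 9 probe sets were higher in PGC than in each of the other groups, so all 6 genes rose in all 3 comparisons at an adjusted p below 0.05 (limma, Benjamini-Hochberg over 37693 probe sets). Over the whole array, 18.2% of probe sets were called higher in PGC than in blastoderm, 10.8% than in GSC and 19.6% than in CEF, and 4.78% passed all 3. None of the 9 was lower in PGC, where 19.1%, 11.1% and 19% of all probe sets were called lower in the same order. The 3 comparisons share the PGC arrays, and because of how the genes were chosen the contrast with the whole array is a description only. Taking 1 probe set for each gene, the median log2 fold change of the 6 genes was 3.30 against blastoderm, 2.86 against GSC and 3.27 against CEF, beside medians over 13008 genes of -0.07, -0.02 and -0.01. For 8 of the 9 probe sets every PGC array lay above all 9 other arrays, which 5.61% of the array's probe sets did. The exception was TDRD7.

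**Figure D1:**
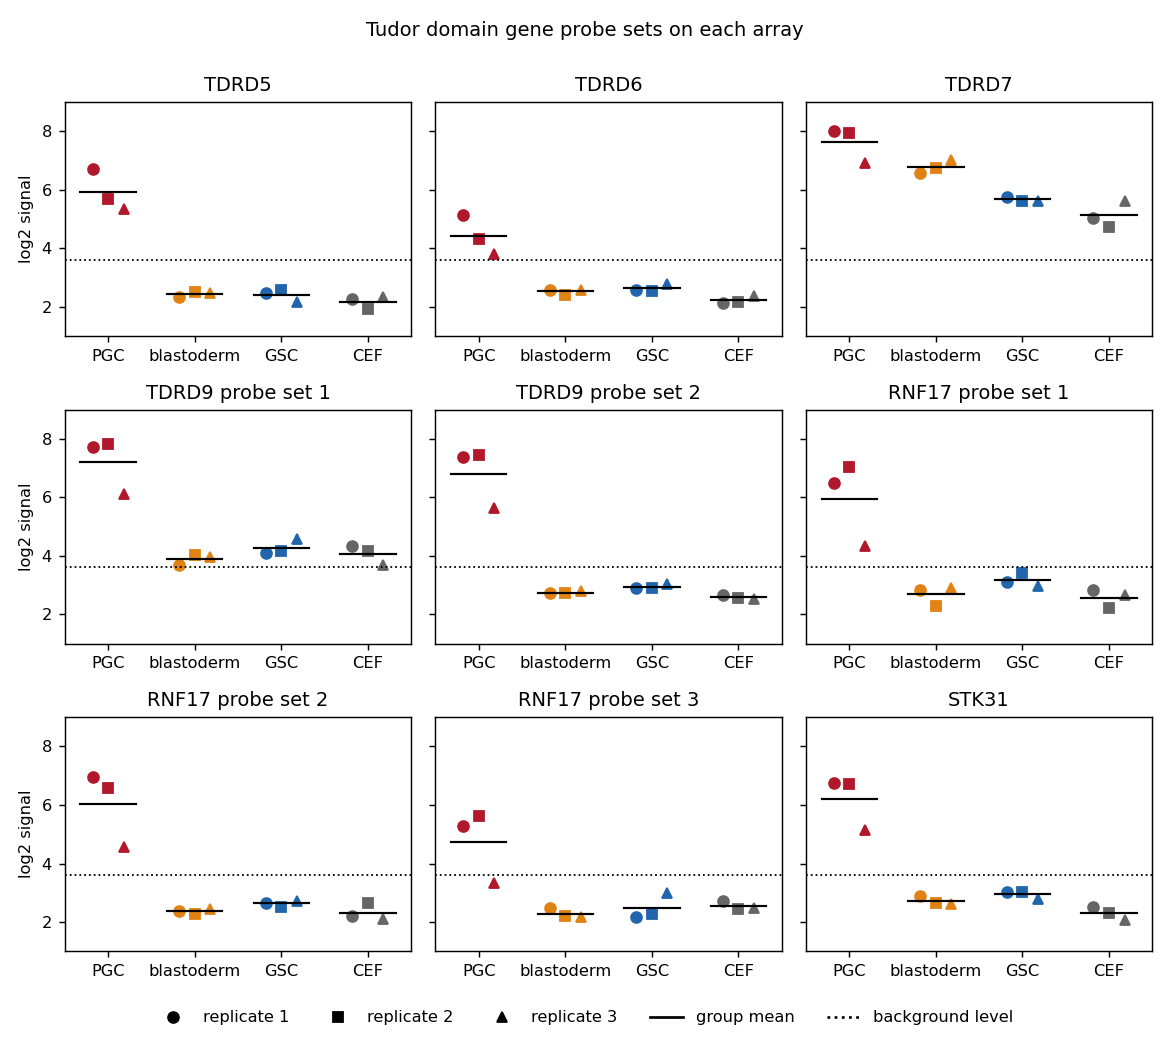
Log2 signal (vertical axis) of the 9 probe sets on each of the 12 arrays, grouped as PGC, blastoderm, GSC and CEF, with marker shapes for replicates, a bar for the group mean and a dotted line at the background level of 3.61. Outside PGC, 7 of the 9 probe sets lie below the line on all 9 arrays, and PGC replicate 3 is the lowest PGC array in every panel.

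TDRD5 joins a LOTUS domain, a fold that binds RNA and the DDX4 family helicases, to a Tudor domain, and in mouse it is needed for transposon silencing and sperm formation. Its probe set read 6.69, 5.69 and 5.33 in PGC replicates 1 to 3. It read 2.34, 2.49 and 2.45 in blastoderm, 2.47, 2.57 and 2.15 in GSC, and 2.26, 1.91 and 2.32 in CEF. The PGC arrays thus stood apart from the rest, and the other 9 arrays were all below background. The log2 fold change was 3.48 against blastoderm (SE 0.26, adjusted p = 3.07e-08), 3.51 against GSC (SE 0.26, adjusted p = 1.32e-07) and 3.74 against CEF (SE 0.26, adjusted p = 1.02e-08). Counted from the background level, PGC were at least 4.91-fold higher than each of the 3 groups, or 5.99-fold without PGC replicate 3.

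TDRD7, the other LOTUS and Tudor protein, works in the chromatoid body of mouse spermatids and also outside the germ line, in the lens, where its loss causes cataract in humans and mice. TDRD7 lay above background on all 12 arrays and read 7.99, 7.94 and 6.92 in PGC, 6.57, 6.75 and 7.00 in blastoderm, 5.75, 5.63 and 5.62 in GSC, and 5.03, 4.72 and 5.61 in CEF. PGC replicate 3 lay inside the blastoderm range, while no array of PGC or blastoderm reached down to those of GSC or CEF. The order of the means was PGC, blastoderm, GSC, CEF.

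Against blastoderm TDRD7 was 1.80-fold higher in PGC (log2 0.84, SE 0.28, adjusted p = 0.025). This call ended without PGC replicate 1 (log2 0.66, adjusted p = 0.115), PGC replicate 2 (0.68, 0.105), blastoderm replicate 1 (0.74, 0.0874) or blastoderm replicate 2 (0.83, 0.0653), and the log2 fold change was 1.19 without PGC replicate 3. TDRD7 was 3.87-fold higher in PGC than in GSC (log2 1.95, SE 0.28, adjusted p = 1.10e-04) and 5.64-fold higher than in CEF (log2 2.49, SE 0.28, adjusted p = 2.17e-06). Blastoderm in turn exceeded GSC by 2.15-fold (log2 1.11, SE 0.28, adjusted p = 0.00442) and CEF by 3.14-fold (log2 1.65, SE 0.28, adjusted p = 1.29e-04). GSC and CEF, next to each other in the order, were not called different (log2 0.54, SE 0.28, adjusted p = 0.153), although every GSC array lay above every CEF array, by a narrow margin at 5.62 against 5.61. They were called with array weights (adjusted p = 0.0278), where GSC replicate 2 weighed 6.93 and GSC replicates 1 and 3 weighed 0.64 and 0.58. They were also called without CEF replicate 3 (log2 0.79, adjusted p = 0.0493).

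TDRD6 is built almost wholly of Tudor domains and holds the chromatoid body together in mouse, while its zebrafish counterpart acts in the germ plasm of the egg. Its probe set read 5.12, 4.33 and 3.80 in PGC, against 2.58, 2.40 and 2.58 in blastoderm, 2.58, 2.54 and 2.77 in GSC, and 2.12, 2.16 and 2.37 in CEF. PGC replicate 3 was only just above background, and the 9 other arrays were below it. The log2 fold change was 1.90 against blastoderm, 1.79 against GSC and 2.20 against CEF (SE 0.24 each, adjusted p = 8.25e-06, 5.73e-05 and 1.51e-06). From the background level this is at least 1.75-fold in each comparison, or 2.17-fold without PGC replicate 3.

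TDRD9 is an RNA helicase of the DExH family with a Tudor domain, which in mouse works with a nuclear PIWI protein against LINE retrotransposons. Its first probe set read 7.71, 7.82 and 6.12 in PGC, 3.68, 4.03 and 3.95 in blastoderm, 4.09, 4.18 and 4.56 in GSC, and 4.33, 4.17 and 3.67 in CEF. Its second read 7.37, 7.43 and 5.64 in PGC, 2.73, 2.72 and 2.79 in blastoderm, 2.90, 2.89 and 3.05 in GSC, and 2.67, 2.57 and 2.54 in CEF. The probe sets differed on whether TDRD9 was measurable outside PGC, since all 9 other arrays lay just above background in the first and all 9 below it in the second. They shared their pattern over the 12 arrays (r = 0.990, a description over arrays that include the group differences).

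The first TDRD9 probe set gave a log2 fold change of 3.33 in PGC against blastoderm (SE 0.35, adjusted p = 1.14e-06), 2.94 against GSC (SE 0.35, adjusted p = 1.79e-05) and 3.16 against CEF (SE 0.35, adjusted p = 1.88e-06). The second gave 4.06, 3.87 and 4.22 in the same order (SE 0.33, adjusted p = 7.62e-08, 6.14e-07 and 3.99e-08), at least 9.21-fold from the background level and 13.8-fold without PGC replicate 3.

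RNF17, also known as TDRD4, pairs a RING finger with Tudor domains, and in mouse it is needed for spermatid development and restrains piRNA production from the wrong transcripts. Its first probe set read 6.49, 7.03 and 4.33 in PGC, against 2.85, 2.29 and 2.90 in blastoderm, 3.10, 3.42 and 2.98 in GSC, and 2.82, 2.22 and 2.67 in CEF. In the second PGC read 6.94, 6.58 and 4.57, and in the third 5.28, 5.63 and 3.34. The other 9 arrays ran from 2.09 to 2.71 in the second and from 2.17 to 3.00 in the third. All 3 probe sets separated PGC from the other groups without overlap, although PGC replicate 3 was below background in the third.

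Against GSC the log2 fold changes of RNF17 were 2.79, 3.40 and 2.26 (SE 0.46, 0.41 and 0.41, adjusted p = 4.08e-04, 1.96e-05 and 7.67e-04). Against blastoderm they were 3.27, 3.67 and 2.46, and against CEF 3.38, 3.71 and 2.20, with the largest adjusted p at 3.80e-04. From the background level PGC were at least 5.08-fold, 5.36-fold and 2.21-fold higher than each group. Without PGC replicate 3 these bounds were 8.89-fold, 8.90-fold and 3.60-fold.

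STK31, also known as TDRD8, joins a Tudor domain to a protein kinase domain and is found with a PIWI protein in mouse testis. Its probe set read 6.75, 6.73 and 5.14 in PGC, 2.89, 2.63 and 2.63 in blastoderm, 3.03, 3.02 and 2.78 in GSC, and 2.51, 2.30 and 2.07 in CEF. Again only the PGC arrays were above background. The log2 fold change was 3.48 against blastoderm, 3.26 against GSC and 3.91 against CEF (SE 0.32 each, adjusted p = 2.43e-07, 2.24e-06 and 5.50e-08), at least 6.04-fold from the background level and 8.75-fold without PGC replicate 3.

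**Figure D2:**
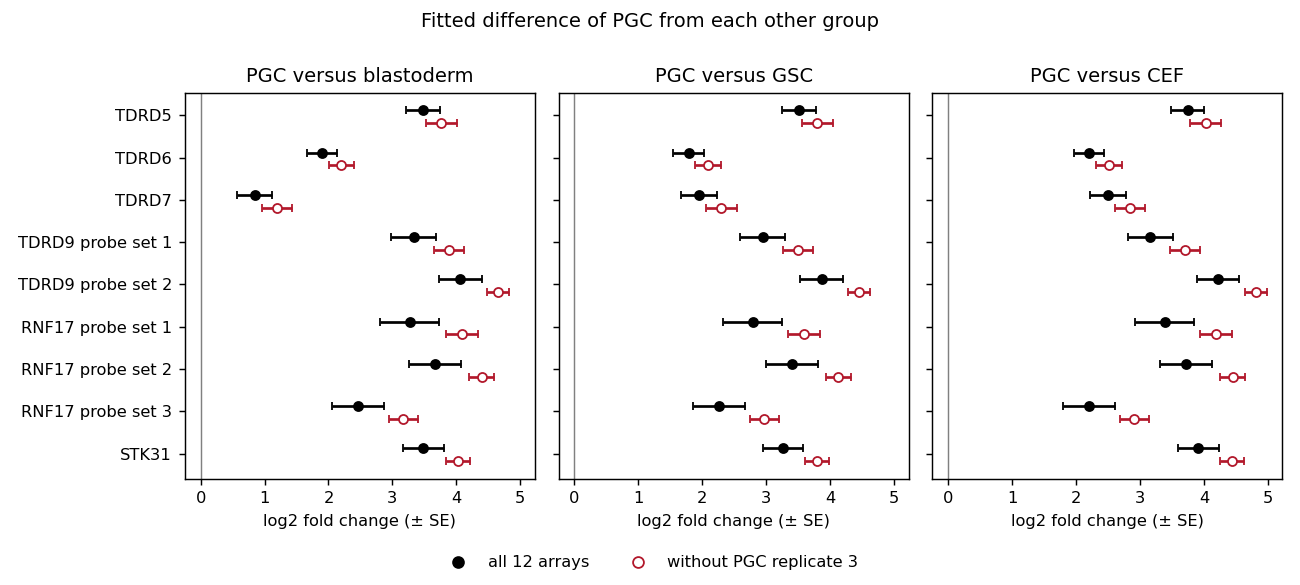
Fitted log2 fold change of PGC over blastoderm, GSC and CEF (horizontal axes) for each probe set, with SE bars, from all 12 arrays (filled) and without PGC replicate 3 (open). Every value lies above 0, the smallest being TDRD7 against blastoderm at 0.84, and every open symbol lies to the right of its filled one.

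The size of the folds changed with the treatment of low signals. An offset of 64 added on the linear scale moved 26 of the 27 member folds of PGC by over 1.5 times, to log2 values between 0.30 and 1.48, and an offset of 16 moved 24. All 27 stayed called under both offsets. Leaving out PGC replicate 3 raised 12 of the 27 by over 1.5 times, by 1.75 times at most.

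Among the groups without sorted germ cells, TDRD7 was the only member called. It was 1 of the 9 probe sets called higher in blastoderm than in GSC and 1 of 9 higher than in CEF, where 18.6% and 20.6% of all probe sets were called higher. None was lower, against 18.5% and 18.2% of all probe sets. In GSC against CEF none of the 9 was called by limma in either direction (0 at an unadjusted p below 0.05), where 17.8% of all probe sets were called higher and 16% lower. STK31 came nearest to a call there (log2 0.65, SE 0.32, adjusted p = 0.133), with every GSC array above every CEF array and all 6 below background. It was called without PGC replicate 3 (adjusted p = 0.00576), as was the first RNF17 probe set (log2 0.59, adjusted p = 0.0474). PGC replicate 3 belongs to neither group, so both log2 fold changes stayed the same. Only the SE fell, from 0.32 to 0.17 for STK31 and from 0.46 to 0.22 for RNF17. The first RNF17 probe set also lay below background on every GSC and CEF array. Of the 5 measured germ cell markers, DDX4, DAZL and KIT were called higher in GSC than in CEF. That is 3 of 5, beside the 17.8% of all probe sets given above. DND1 and CXCR4 were not called and had lower means in GSC (4.55 and 3.04) than in CEF (4.64 and 4.07). DDX4, the vasa helicase, stood at 5.19 ± 0.09 in GSC and 2.32 ± 0.27 in CEF, and DAZL, a germ cell RNA-binding protein, at 6.64 ± 0.21 in GSC and 2.49 ± 0.45 in CEF (SD, n = 3 each). The part of these in the STK31 and RNF17 values was not tested.

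The members also varied within PGC, and PGC replicate 3 was the lowest PGC array for all 9 probe sets. It lay below the mean of PGC replicates 1 and 2 by 2.43, 2.19 and 2.12 (log2) for the RNF17 probe sets, by 1.64 and 1.76 for those of TDRD9 and by 1.60 for STK31. TDRD7, TDRD6 and TDRD5 lay 1.04, 0.92 and 0.86 below. Among the 1802 probe sets called higher in PGC than in each other group, the median difference was -0.41 and the 5th percentile -1.51. A drop larger than that of the RNF17 probe sets was seen in 0.44%, 1.05% and 1.33% of them. Those 1802 were called with PGC replicate 3 included, which limits how far a probe set with a small excess in PGC could drop.

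Other germ cell genes differed in the size of their drop in that array. DDX4 lay 1.14 below the mean of the other PGC arrays, DAZL 0.99, PIWIL1 (the chicken PIWI protein also called CIWI) 0.71, and DND1, an RNA-binding protein of the germ plasm, 0.16. MOV10L1, the helicase that feeds precursors into piRNA production, lay 2.37 below and TDRD1 2.23 below. The drop of MOV10L1 was the largest among the 11 measured piRNA pathway partners. MAEL and PNLDC1 of that list lay only 0.29 and 0.54 below, and GPAT2 lay 0.60 above. TDRKH, another Tudor domain gene, lay 0.39 above. The gonadal somatic markers went the other way, with NR5A1, a regulator of steroid-producing cells, 1.48 above and GATA4 2.53 above. These are differences within 1 array and have no replicate.

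**Figure D3:**
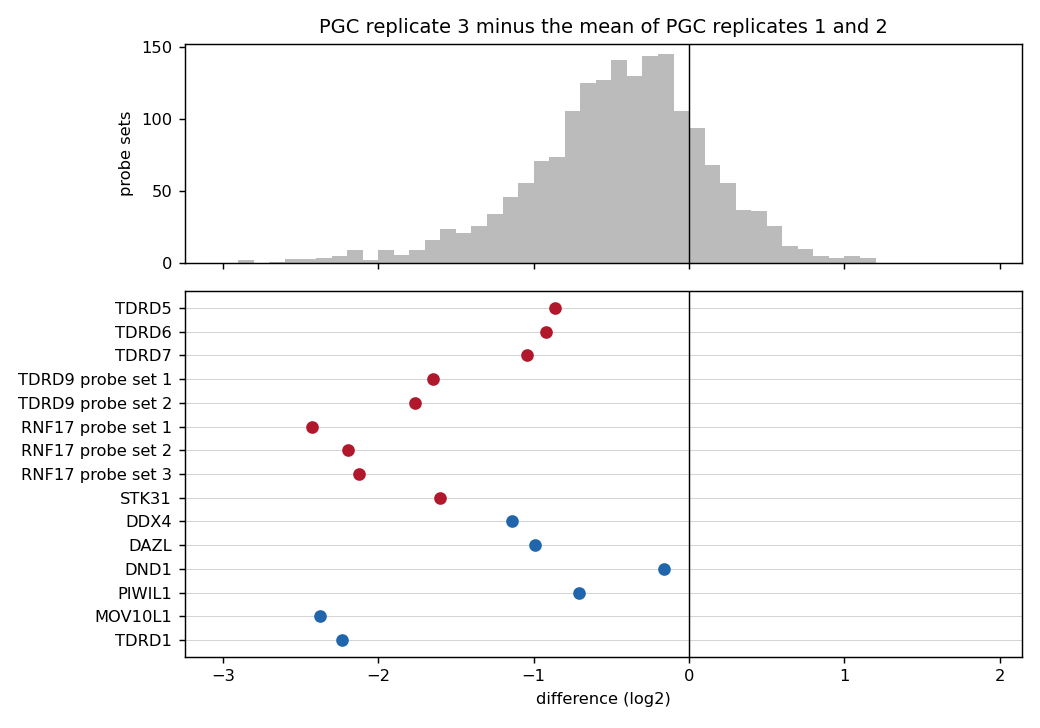
PGC replicate 3 minus the mean of PGC replicates 1 and 2 (log2, horizontal axis): above, a histogram of the 1802 probe sets called higher in PGC than in each other group, and below, the 9 Tudor probe sets (red) and 6 germ cell genes (blue). The RNF17 values lie between -2.43 and -2.12, near those of MOV10L1 and TDRD1, while DND1 lies at -0.16.

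Of 10 other Tudor domain genes on a fixed list, 6 had a probe set with that symbol, and these 6 did not rise as a group. TDRD10, TDRD12, TDRD15 and SND1 had no such probe set and were not measured. None of the 6 was called higher in PGC than in blastoderm (26.3% of all genes were; at an unadjusted p below 0.05 none of the 6 was higher either) and 2 were lower (23.5% of all genes). Against GSC 2 were higher and 0 lower (16.8% and 13.5% of all genes), and against CEF 2 were higher and 1 lower (27.7% and 22% of all genes). Their median log2 fold change was -0.56 against blastoderm, 0.28 against GSC and 0.37 against CEF. Without PGC replicate 3 the counts were 1 higher and 2 lower against blastoderm, 2 and 0 against GSC, and 3 and 1 against CEF. When all probe sets of each gene were averaged, 2 were higher and 3 lower against blastoderm, the higher being TDRD1 and TDRKH (log2 1.11 and 0.54), 2 and 0 against GSC, and 3 and 1 against CEF.

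TDRD1, a multi-Tudor partner of PIWI proteins in mouse, was higher in both PGC and blastoderm than in GSC and CEF. Its probe set with the highest mean read 7.59, 7.63 and 5.38 in PGC, 6.34, 6.05 and 6.06 in blastoderm, 4.19, 4.43 and 4.32 in GSC, and 3.45, 3.32 and 3.39 in CEF. PGC exceeded GSC (log2 2.56, SE 0.41, adjusted p = 3.28e-04) and CEF (log2 3.48, SE 0.41, adjusted p = 4.33e-06). CEF lay below background, so PGC were at least 9.57-fold higher there, or 16.04-fold without PGC replicate 3. Against blastoderm this probe set was not called (log2 0.72, SE 0.41, adjusted p = 0.188), while it was without PGC replicate 3 (log2 1.46, adjusted p = 1.21e-05). The other TDRD1 probe sets were called higher in PGC than in blastoderm with all arrays (log2 1.03 and 1.59, adjusted p = 0.0256 and 0.00291). All 3 were higher in blastoderm than in GSC, with adjusted p of 0.0019, 9.93e-04 and 0.00418.

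Apart from TDRD1 and TDRKH, the measured genes of the list serve other cells as well. TDRD3, which acts with a topoisomerase on RNA and chromatin, was lower in PGC than in blastoderm (log2 -1.62, SE 0.24, adjusted p = 3.79e-05) and CEF (log2 -0.99, SE 0.24, adjusted p = 0.00324). AKAP1, a mitochondrial anchor protein with a Tudor domain, was lower in PGC than in blastoderm (log2 -0.72, SE 0.22, adjusted p = 0.0162). SMN, which assembles splicing particles, rose against GSC (log2 0.64, SE 0.20, adjusted p = 0.0267) by 1 of its 2 probe sets but not in their average, and the splicing factor SMNDC1 rose against CEF (log2 0.88, SE 0.26, adjusted p = 0.0131). TDRKH, which tethers PIWI proteins to mitochondria, had probe sets that disagreed. The one with the highest mean was at 5.05 ± 0.25 in PGC, 4.83 ± 0.19 in blastoderm, 4.89 ± 0.21 in GSC and 4.94 ± 0.08 in CEF (SD, n = 3 each) and was not called. Another read 4.12, 3.82 and 5.08 in PGC and 2.07 to 2.96 in the other arrays, all below background, and was called higher in all 3 comparisons (adjusted p = 3.09e-04 against blastoderm, 1.13e-04 against GSC and 3.40e-05 against CEF). From the background level that is at least 1.66-fold, or 1.29-fold without PGC replicate 3, the highest array.

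Of 14 PIWI and piRNA pathway partners, 11 were measured. Against blastoderm 9 rose, 0 fell and 2 were not called, against GSC 10 rose, 0 fell and 1 was not called, and against CEF 9 rose, 1 fell and 1 was not called. Over all genes 26.3%, 16.8% and 27.7% were called higher and 23.5%, 13.5% and 22% lower in the same order. Without PGC replicate 3, 10, 11 and 8 of the 11 were higher and 0, 0 and 1 lower. Their median log2 fold changes were 3.36, 3.09 and 2.96. GPAT2 is counted as higher in all 3 comparisons, although its PGC mean of 3.34 lay below background. Only PGC replicate 3 was above it (3.73, against 3.07 and 3.20 in PGC replicates 1 and 2). PIWIL1 itself was at 9.60 ± 0.41 in PGC, 5.27 ± 0.15 in blastoderm, 6.51 ± 0.11 in GSC and 4.68 ± 0.56 in CEF (SD, n = 3 each), with log2 fold changes of 4.33, 3.09 and 4.93. ASZ1, an ankyrin protein of nuage beside mitochondria, rose by 3.36 (log2) against blastoderm and 3.50 against GSC, where 2 of 3 arrays were above background, and at least 10.97-fold against CEF, which lay below it (13.8-fold without PGC replicate 3). MAEL, maelstrom, rose by 1.86 (log2) against blastoderm and at least 4.49-fold against GSC and CEF, both below background (4.80-fold without PGC replicate 3). The list shares DDX4 with the marker genes above. Of 7 germ granule RNA-binding proteins 5 were measured, and DDX4, DAZL, DND1 and the helicase DDX25 rose in all 3 comparisons, beside those same shares over all genes, while MARF1 was not called in any. These counts were the same without PGC replicate 3. DDX25 stood near background, at 4.23 in PGC against 3.67 in blastoderm, 3.67 in GSC and 3.34 in CEF. The MARF1 probe set used lay below background on every array.

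Of 4 genes of arginine methylation, 0 were higher and 1 lower in PGC against blastoderm, 1 higher and 1 lower against GSC, and 1 higher and 2 lower against CEF. Over all genes 26.3%, 16.8% and 27.7% were higher and 23.5%, 13.5% and 22% lower. PRMT5 is the main methyltransferase of the arginines bound by Tudor domains. It was at 7.83 ± 0.37 in PGC, 7.88 ± 0.34 in blastoderm, 7.56 ± 0.09 in GSC and 7.52 ± 0.26 in CEF (SD, n = 3 each). PRMT5 was not called in any of the 3 comparisons. WDR77, its partner subunit, was at 9.89 ± 0.36 in PGC, 9.66 ± 0.16 in blastoderm, 8.55 ± 0.43 in GSC and 8.57 ± 0.33 in CEF. WDR77 rose in PGC against GSC (log2 1.33, SE 0.22, adjusted p = 3.77e-04) and CEF (log2 1.32, SE 0.22, adjusted p = 1.44e-04) and was not called against blastoderm (log2 0.22, adjusted p = 0.45). Only 2 of its 4 probe sets rose against GSC and 2 against CEF, and 1 fell against blastoderm. Averaged over its probe sets, WDR77 rose by log2 0.86 against GSC and 0.72 against CEF (adjusted p = 0.00245 and 0.00409). PRMT1, the general methyltransferase, lay below background on every PGC and blastoderm array. It fell in PGC against GSC (adjusted p = 0.00695) and CEF (adjusted p = 0.0351), with GSC at least 1.60-fold and CEF at least 1.29-fold higher. In CEF only 2 of the 3 arrays lay above background. All 3 of its probe sets fell against GSC but only 1 against CEF, where their average was not called (log2 -0.34, adjusted p = 0.0892). CLNS1A, a substrate adaptor of PRMT5, fell against blastoderm (log2 -0.96, SE 0.16, adjusted p = 1.83e-04) and CEF (log2 -0.44, SE 0.16, adjusted p = 0.0434).

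**Figure D4:**
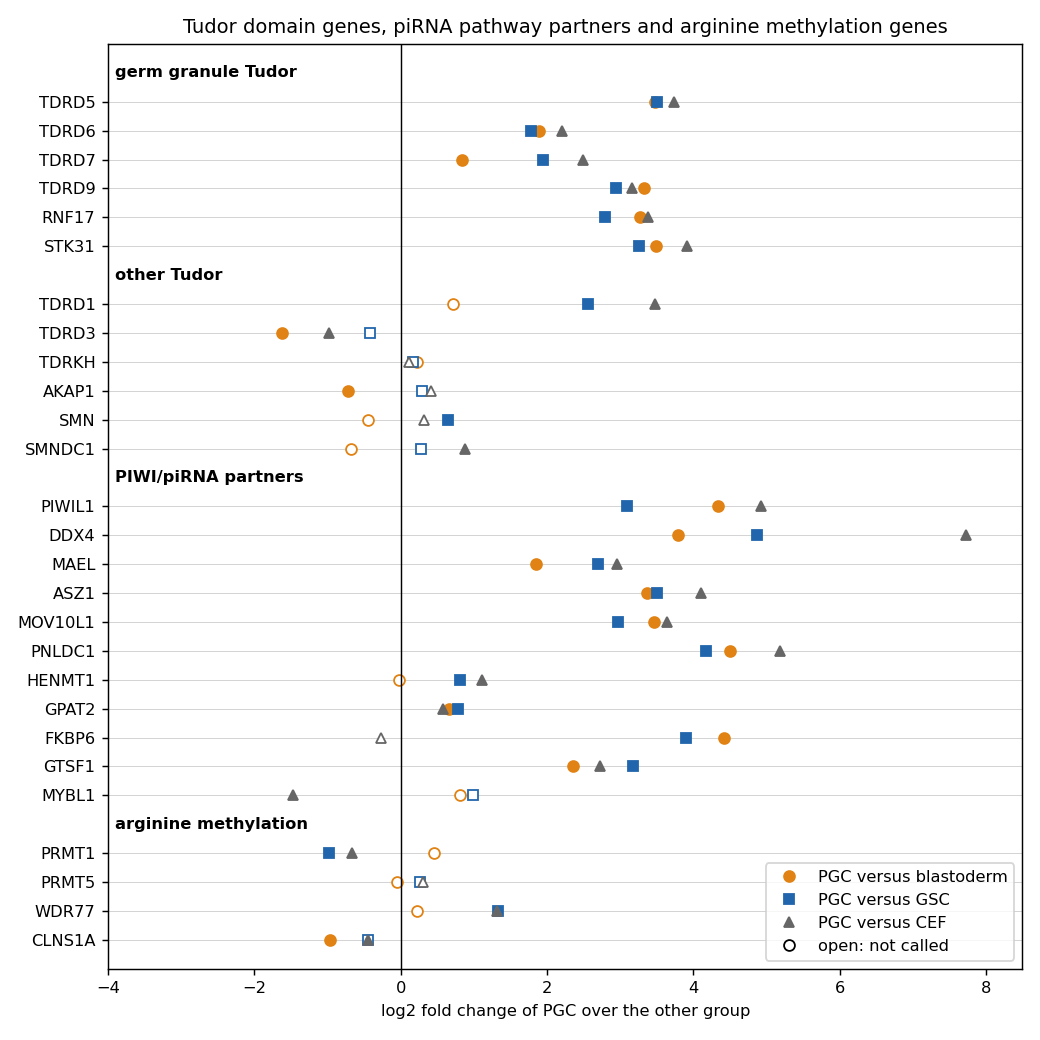
Log2 fold change of PGC over blastoderm, GSC and CEF (horizontal axis) for the 6 germ granule Tudor genes, 6 other Tudor genes, 11 PIWI and piRNA pathway partners and 4 arginine methylation genes, each by its brightest probe set on average, with open symbols where the adjusted p was 0.05 or more. All symbols of the first group are filled and right of 0, whereas TDRD3 lies at -1.62, -0.42 and -0.99.

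Over the 12 arrays the members resembled one another, with Pearson correlations between 0.931 and 0.979 among TDRD5, TDRD6, TDRD9, RNF17 and STK31 and between 0.728 and 0.823 for each of these with TDRD7. These values describe arrays that share the group differences and the low PGC replicate 3, and carry no test. Among the 6819 candidate genes with a range of group means of at least 1 (log2), those most like RNF17 were MOV10L1 (r = 0.992), ADAM22 (0.982) and PPP2R2C (0.981). STK31 was closest to the gene annotated AMY2A (0.993) and to the meiotic chromosome axis genes SYCP3 (0.991) and HORMAD1 (0.988). TDRD9 was closest to SYCP3 (0.989), DDHD2 (0.981) and MOV10L1 (0.980).

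TDRD6 was closest to HORMAD1 (0.983), ALKBH3 (0.982) and ACHE (0.981), and TDRD5 to HES5 (0.990), TUBA3E (0.989) and ACHE (0.987). TDRD7, whose pattern included blastoderm, was closest to CALR3 (0.979), VPS29L (0.978) and IFT22 (0.975). By rank correlation only 1 of these choices was kept, DDHD2 for TDRD9.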

How the data were processed

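The authors deposited 1 table of log2 values with a column for each array, already scaled between arrays (array medians from 3.45 to 3.60). The submitters' processing notes name MAS5 with no version or role. The sources used here do not state the steps behind the log2 values, and raw intensities were not analysed here.

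Leaving out 96 manufacturer controls and 746 viral and reporter probe sets gave 37693 for testing. The group comparisons used limma 3.58.1 under R 4.3.3 (lmFit, eBayes with an intensity trend, 12 arrays, 8 residual degrees of freedom, two-sided), with Benjamini-Hochberg adjustment and calls at an adjusted p below 0.05. Each gene stands by its brightest probe set on average. Where all arrays of a group lay below background, a lower bound of the fold sets the other group's mean, as measured, against the single background level. Alternatives were offsets of 16 and 64, a filter on low values, other scalings, priors and weights, only the groups compared, a replicate block, averaged probe sets of a gene and each array left out. The members, gene lists and tests were chosen with earlier results of these data known. The rule for named genes takes all members and list genes, and the 3 genes most correlated with each member. No sequences or coordinates are printed, since no sequence tables were used here. The number of arrays limits the precision.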

Additional observations from a re-analysis of the deposited data

How the results depend on the processing

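Of the 27 comparisons of a member probe set with PGC, 26 were called under all 22 alternatives; the exception was TDRD7 against blastoderm, whose 4 lost calls are given above. None of these 27 fold changes reversed. Some member fold changes between the other groups that were not called did change sign. One was TDRD5 in blastoderm against GSC, at log2 0.03 and from -0.09 to 0.12 under the alternatives. With array weights 6370 probe sets were called higher in PGC than in GSC (4083 without weights) and 7460 lower (4166). Higher in blastoderm than in GSC were 11621 (7016). In that setting 1 member probe set (RNF17) was lower in blastoderm than in GSC, beside 9807 of all 37693. Higher in GSC than in CEF were 3 members, beside 8734 of all 37693. The weights stood at 6.93 for GSC replicate 2, against 0.64 and 0.58 for GSC replicates 1 and 3, so weighted GSC values rest mostly on 1 array. With only the 2 groups compared, 2 member probe sets were higher in blastoderm than in CEF, beside 8168 of all 37693. Higher in GSC than in CEF were 3, beside 6967 of all 37693. STK31, TDRD6 and the first RNF17 probe set lay below background on every blastoderm, GSC and CEF array. Leaving out each array in turn gave 2675 to 5117 probe sets lower in PGC than in GSC, the lowest without PGC replicate 1. It gave 0 to 2 member probe sets higher in GSC than in CEF, beside 5586 to 7341 of all 37693. The other 530 of 540 recomputed counts stayed within 1.5 times. The labels state no pairing by replicate number. Correlations of deviations in PGC and GSC at the same replicate number were 0.18, -0.07 and 0.00. Unlike replicate numbers were not compared, so these values cannot exclude pairing. With a replicate block all 27 calls stayed, the largest adjusted p being 0.0342. The cause of these shifts was not tested. Signals near background limit TDRD6 and the third RNF17 probe set most.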

Other observations

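A pair of piRNA pathway partners departed from the Tudor genes through the fibroblasts. FKBP6, a co-chaperone that in mouse helps load piRNAs, read 8.83, 8.38 and 7.87 in PGC, 3.87, 3.92 and 4.03 in blastoderm, 4.79, 4.43 and 4.15 in GSC, and 7.69, 9.58 and 8.63 in CEF. It was not called in PGC against CEF (log2 -0.27, SE 0.36, adjusted p = 0.58) and was lower in GSC than in CEF (log2 -4.18, SE 0.36, adjusted p = 1.31e-07). MYBL1, a transcription factor that drives piRNA genes in mouse and rooster testis, read 5.96, 5.64 and 4.32 in PGC, 4.32, 4.40 and 4.75 in blastoderm, 4.73, 3.91 and 4.30 in GSC, and 7.18, 6.73 and 6.40 in CEF. It was lower in PGC than in CEF (log2 -1.47, SE 0.35, adjusted p = 0.00313), by 2 of its 6 probe sets. Against GSC it was not called (log2 0.99, SE 0.35, adjusted p = 0.0538), but was without PGC replicate 3 (log2 1.48, adjusted p = 5.56e-04). Both genes were thus highest in the cultured cells or as high there as in PGC. By their brightest probe sets, 2 of the 6 Tudor genes (TDRD7 and TDRD9) had a CEF mean above background. The second TDRD9 probe set lay below it on every CEF array.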
